A study of Mus musculus with 4 samples.

Results

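The PIWI-interacting RNA (piRNA) pathway and its Tudor domain proteins were followed in cultured mouse spermatogonia through 33 genes, taken from the 55421 genes of the count table by their symbols. The members are the 3 Piwi genes expressed in the mouse male germline, the factors that process piRNA precursors and finish their ends, helicases and partners of the nuage, Tudor scaffold proteins, the enzyme pair that methylates Piwi proteins on arginine, and factors that silence transposons or drive piRNA cluster transcription. All 33 were in the table and all 33 passed the filter on low counts, which left 20232 genes to test. The members were chosen by name for their function, and earlier results of these data were known at that point.

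Poly(A) RNA was sequenced from spermatogonial stem cell (SSC) cultures of the CD1 mouse strain, established from the testes of pups aged 6 days and grown on irradiated mouse embryonic fibroblast (MEF) feeders. The Veh group stayed in complete SSC medium with GDNF and bFGF. The NRRA group received nutrient restriction plus retinoic acid (RA), a medium of 10% SSC medium and 90% of the balanced salt solution EBSS with 100 nM RA, for 48 hours. Both groups held the same strain and the same feeders, and each had 2 libraries, with total counts between 28022265 and 31604769. The question of the comparison was whether NRRA, which the study uses to start the meiotic gene program, also acts in CD1 cells. The study describes the replicates of its sequencing experiments as independent biological ones, while the labels of these libraries do not tie them to separate cultures or mice, and p-values measure the spread between these libraries. Feeder cells were not removed, and a smaller share of a cell type and less RNA per cell cannot be told apart in bulk RNA.

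piRNAs are small RNAs of animal gonads that guide Piwi proteins to transposon transcripts and, in the fetal male germline, to transposon DNA that is then methylated. Their precursors are cut at the outer membrane of mitochondria, trimmed and methylated at the end, and amplified in perinuclear granules called nuage. Piwi proteins carry methylated arginines that Tudor domains bind, and Tudor proteins thereby hold the granules together. A first piRNA wave acts before birth, and another, the pachytene piRNAs, is made from dedicated clusters once spermatocytes have entered meiosis.

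The start regions of 5 members are shown as examples of the sequences at annotated starts of these genes: Pld6 and Gpat2, which rose most among members with a window, Tdrd5 and Piwil4, which fell most, and Piwil1 with Piwil4 for the Piwi family. Each window runs from 250 bases before to 50 bases after a RefSeq start site (GRCm38.p6), read in the direction of the gene, and capitals mark the motifs searched, which are described after the expression values. Windows were found for 26 of the 33 members, 36 windows in all. Rnf17, Piwil2, Tex15, Morc1, Spocd1, Tdrd6 and Pnldc1 had no entry.
Pld6 (chr11:59787608-59787907, - strand): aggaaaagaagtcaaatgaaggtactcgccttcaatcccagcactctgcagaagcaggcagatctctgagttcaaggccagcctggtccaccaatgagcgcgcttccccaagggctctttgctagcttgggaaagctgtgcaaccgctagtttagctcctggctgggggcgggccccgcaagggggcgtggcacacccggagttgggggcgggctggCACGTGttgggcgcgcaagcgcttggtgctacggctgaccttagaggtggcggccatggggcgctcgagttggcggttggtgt
Gpat2 (chr2:127424949-127425248, + strand): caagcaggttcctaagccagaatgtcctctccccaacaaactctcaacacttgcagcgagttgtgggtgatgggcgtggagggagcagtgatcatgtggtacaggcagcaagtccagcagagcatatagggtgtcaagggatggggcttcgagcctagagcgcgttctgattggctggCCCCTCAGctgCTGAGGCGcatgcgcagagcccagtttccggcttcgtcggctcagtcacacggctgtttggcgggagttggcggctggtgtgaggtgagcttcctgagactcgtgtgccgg
Tdrd5 (chr1:156303299-156303598, - strand): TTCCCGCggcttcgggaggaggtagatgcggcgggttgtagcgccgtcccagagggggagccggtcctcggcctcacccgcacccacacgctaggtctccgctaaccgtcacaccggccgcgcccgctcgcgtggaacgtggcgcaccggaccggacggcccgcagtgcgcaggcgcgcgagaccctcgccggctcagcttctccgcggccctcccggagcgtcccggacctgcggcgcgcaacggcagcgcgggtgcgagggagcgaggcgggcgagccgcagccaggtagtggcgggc
Piwil4 (chr9:14740623-14740922, - strand): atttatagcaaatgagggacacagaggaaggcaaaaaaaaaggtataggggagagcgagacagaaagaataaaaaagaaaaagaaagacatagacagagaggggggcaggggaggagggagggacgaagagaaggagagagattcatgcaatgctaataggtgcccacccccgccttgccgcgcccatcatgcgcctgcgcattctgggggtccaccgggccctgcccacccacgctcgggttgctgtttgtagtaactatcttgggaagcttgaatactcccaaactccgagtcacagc
Piwil1 (chr5:128735996-128736295, + strand): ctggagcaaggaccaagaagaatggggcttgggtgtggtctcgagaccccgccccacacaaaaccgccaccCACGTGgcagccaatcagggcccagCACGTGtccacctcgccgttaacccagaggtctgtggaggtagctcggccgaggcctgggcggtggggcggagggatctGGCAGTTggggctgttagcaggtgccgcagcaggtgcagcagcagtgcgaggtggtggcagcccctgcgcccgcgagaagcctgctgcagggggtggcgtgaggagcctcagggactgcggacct

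The pathway did not move as a block after NRRA. Of the 33 members, 13 rose and 14 fell (edgeR, adjusted p under 0.05), which is 81.8% of the members, while 56.4% of all tested genes were called. Among genes with a mean of at least 10 CPM (counts scaled to library size), which held 31 of the members, 72.4% were called. The calls in each direction compare with 27.9% of all tested genes called higher and 28.4% called lower. Only 4 of the 27 called members reached 2-fold: Pld6 and Tdrd6 among those that rose and Tdrd5 and Spocd1 among those that fell. At that size 6.29% of all tested genes were called higher and 7.02% lower. The median log2 fold change of the members was -0.03, beside 0.00 for all tested genes, and their median size of change was 0.26 on the log2 scale, beside 0.33 for all tested genes. Summed over the 33 genes, the Veh libraries reached 3697 and 3695 CPM and the NRRA libraries 3632 and 3669 CPM. As a share of all counts, without TMM, the same sum ran the other way, at 0.358% in each Veh library against 0.374% and 0.378% for NRRA. Library size alone, without the TMM factors, turned the split of the members to 15 higher and 12 lower. On that scale 60.3% of all calls were higher, against 49.6% with TMM.

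**Figure D1:**
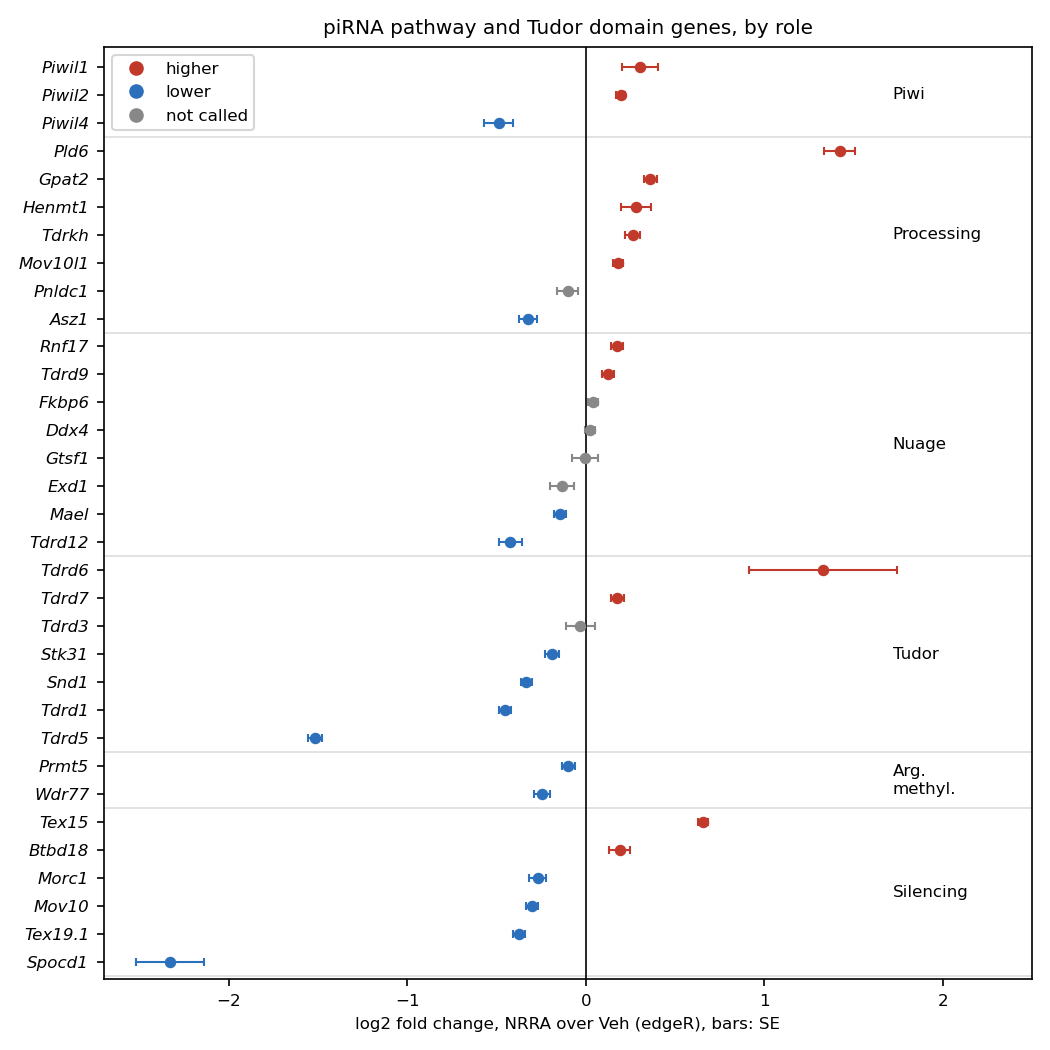
Log2 fold change of each of the 33 members (x axis, NRRA over Veh, edgeR) with its SE as the bar, grouped by role on the y axis and coloured by call (adjusted p under 0.05). Most members lie within 1 log2 unit of 0 on either side, and Pld6, Tdrd6, Tdrd5 and Spocd1 lie outside it.

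The libraries labelled NRRA were checked with an RA-induced gene and with markers of the cell types a culture could hold. Stra8, the RA-induced gene of meiotic entry, was at 9.62 and 10.1 CPM in Veh and at 1864 and 1853 CPM in NRRA, a log2 fold change of 7.56 (SE 0.04, adjusted p = 1.1e-37). Of 13 germ cell genes, all were tested and 6 rose and 6 fell, with Kit, the receptor of differentiating spermatogonia, at 5.59 and Dppa3, an early germ cell gene, whose counts were 230 and 244 for Veh against 4 and 0 for NRRA. The 25 fibroblast feeder genes were also present, and 21 of them fell while 2 rose, with a median log2 fold change of -0.41. Their summed level was 13859 and 13757 CPM in Veh and 10384 and 10125 CPM in NRRA, and at its ends stood Timp1 (-1.52) and Pdgfra (0.98). Germ cells of later stages were scarce. Of 14 late spermatocyte and spermatid genes only 6 passed the filter, of which 3 rose and 1 fell, the summed level of the list was 62.8 and 65.6 CPM for Veh and 89.6 and 86.7 CPM for NRRA, and the protamine gene Prm2 had 1 or 2 counts per library. Hspa2, a chaperone gene of spermatocytes, rose by 1.08 on the log2 scale, from 15.9 and 16.4 CPM to 34.6 and 33.5 CPM, and made up most of the difference in the sum. The other rises were those of Tbpl1 (0.17) and Spaca1, an acrosome gene (0.72, adjusted p = 0.00045), the latter from 3.69 and 3.13 CPM to 5.50 and 5.68 CPM, while Tnp1, a transition protein gene of spermatids, fell by 1.39 at 0.701 and 1.14 CPM for Veh and 0.368 and 0.332 CPM for NRRA. Sertoli and Leydig cell genes summed to between 29.4 and 48.7 CPM with Fshr at 0 in all 4 libraries. Of 6 such genes tested Sox9 fell (-1.59), and Inha (0.53) and Star (0.31) rose. The call of Inha was lost in DESeq2 (adjusted p = 0.11), without Veh replicate 1 and without NRRA replicate 1. A group left with 1 library adds no spread, so that calls in such fits rest on the other group alone. Without 1 library at a time, the log2 fold change of Inha ran from 0.38 to 0.67.

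The 3 Piwi genes split. Piwil2 encodes MILI, the Piwi protein that is present from prospermatogonia onwards and cleaves transposon RNA. It was at 342 and 344 CPM in Veh and at 390.1 and 396 CPM in NRRA, so that both NRRA libraries lay above both Veh libraries, with a log2 fold change of 0.20 (SE 0.03, adjusted p = 2.7e-07). Piwil1 encodes MIWI, the Piwi protein of pachytene spermatocytes and round spermatids. It stood at 10.8 and 12.4 CPM in Veh and at 13.7 and 14.9 CPM in NRRA, a log2 fold change of 0.30 (SE 0.10, adjusted p = 0.013). The groups did not overlap, but their gap was no wider than the gap between the Veh libraries. The call was lost without Veh replicate 1, without NRRA replicate 2 and in DESeq2 (adjusted p = 0.076). Without 1 library at a time, the log2 fold change of Piwil1 ran from 0.21 to 0.41. Piwil4 encodes MIWI2, the nuclear Piwi protein of fetal germ cells that directs DNA methylation to transposons. It fell from 20.98 and 20.74 CPM to 14.71 and 15.05 CPM, a log2 fold change of -0.49 (SE 0.08, adjusted p = 1.3e-05).

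Per exon length, Piwil2 was by far the main Piwi transcript. It reached 64.8 ± 0.30 RPKM (CPM per kilobase of merged exons, SD, n = 2) in Veh and 74.3 ± 0.82 in NRRA. The RPKM ratio of Piwil2 to Piwil4 was 16.6 and 16.9 for Veh and 27.0 and 26.8 for NRRA. Piwil4 was above Piwil1 in both Veh libraries, at RPKM ratios of 1.58 and 1.36, and below it in both NRRA libraries, at 0.869 and 0.816. These ratios rest on annotated exons, which may not all be used in these cells. The change of order depends on that length. In CPM, Piwil4 stayed above Piwil1 in both NRRA libraries, at 14.71 and 15.05 against 13.69 and 14.91. Merged exons were 5385 bases for Piwil4 and 4358 for Piwil1, while the longest transcripts were 3304 and 4016 bases.

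Of the 7 genes that make and finish piRNAs, 5 were called higher, Asz1 was called lower and Pnldc1 was not called. Over all tested genes 27.9% were called higher and 28.4% lower. At a mean of 10 CPM or more, which all 7 reached, 72.4% of tested genes were called in either direction. Against a 1.2-fold limit only Pld6 and Gpat2 of the 5 stayed called. Pld6 (chromosome 11, 59783897 to 59787645, minus strand, GRCm38), the mitochondrial nuclease that cuts piRNA precursors and is also called MitoPLD or Zucchini, changed most. Each Veh library held 281 of its counts and the NRRA libraries held 830 and 829, which is 10.4 and 9.44 against 25.5 and 27.5 CPM, a log2 fold change of 1.42 (SE 0.09, adjusted p = 2.2e-13) and a 2.68-fold higher level. Gpat2, an acyltransferase-like protein of the mitochondrial outer membrane that binds MILI, was at 105.2 and 105.1 CPM in Veh and at 134 and 136 CPM in NRRA (log2 fold change 0.36, SE 0.04, adjusted p = 1.6e-09). The NRRA libraries of both genes stood well clear of the Veh libraries.

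Henmt1, the methyltransferase that protects the ends of piRNAs, was at 17.9 and 15.9 CPM in Veh and at 20.1 and 20.9 CPM in NRRA (log2 fold change 0.28, SE 0.08, adjusted p = 0.0056). The call of Henmt1 was lost without Veh replicate 2, and its log2 fold change ran from 0.19 to 0.37 without 1 library at a time. Its exons overlap Gm9857 on the other strand over 14.7% of their bases, and that gene had between 92 and 119 counts per library. Tdrkh, the mitochondrial Tudor protein that holds Piwi proteins for trimming, was at 71.6 and 73.6 CPM in Veh and at 86.1 and 88.3 CPM in NRRA (log2 fold change 0.26, SE 0.04, adjusted p = 6.2e-06). Its value is uncertain where strand was not used in counting, because 36.7% of its exonic bases lie opposite Oaz3, whose counts were 339 and 404 for Veh against 504 and 475 for NRRA.

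Mov10l1, the helicase that hands precursors to the mitochondrial machinery, rose by 0.18 on the log2 scale. Pnldc1, the trimmer of precursor ends, had a log2 fold change of -0.10 with a 95% confidence interval from -0.22 to 0.02, and Asz1, a mitochondrial scaffold, fell by 0.32. Factors on the same mitochondrial surface therefore did not share a direction, since Pld6, Gpat2 and Tdrkh were called higher and Asz1 lower.

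**Figure D2:**
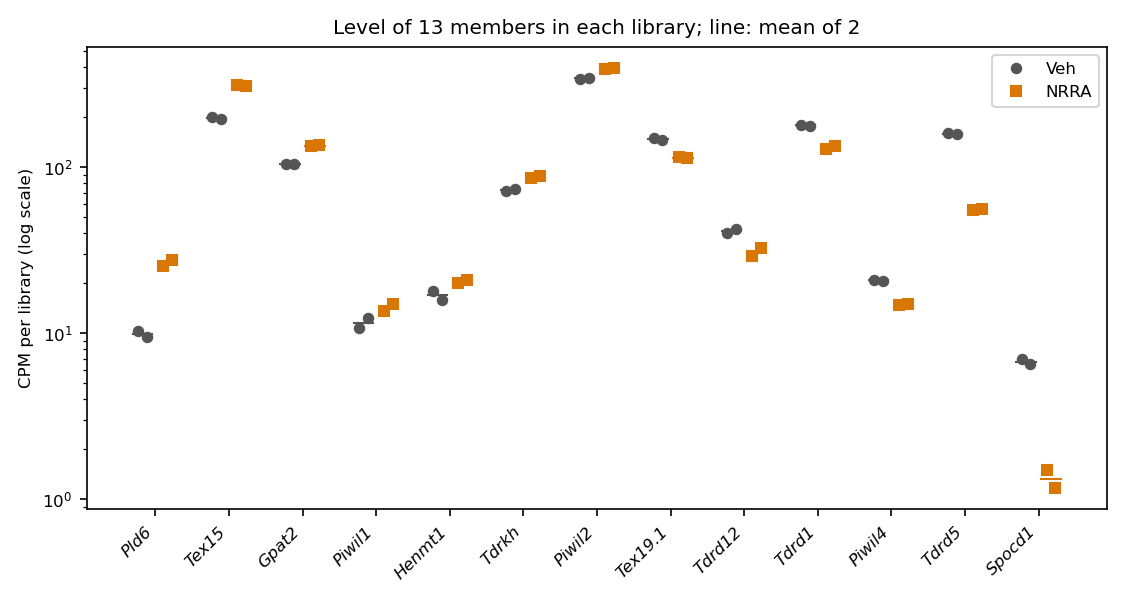
CPM (log scale) in each library of the 3 Piwi genes and the 6 largest rises and 6 largest falls among called members with a mean of at least 1 CPM, 13 genes in all, Veh as grey circles and NRRA as orange squares, with a line at the mean of 2 libraries, ordered by fold change. For each of the 13 genes both NRRA libraries lie on the same side of both Veh libraries, as in 76.7% of all tested genes, and the widest gaps are those of Pld6, Tdrd5 and Spocd1.

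In the nuage group 2 of 8 members rose, 2 fell and 4 were not called. It held the most abundant members per exon length. Fkbp6, a co-chaperone of piRNA loading, led in every library with 136 ± 0.45 RPKM in Veh and 139.8 ± 2.1 in NRRA (SD, n = 2). Mael, which was called lower, was at 96.9 ± 2.2 and 87.6 ± 0.0071 RPKM. Ddx4, the germ cell helicase also called VASA, was at 89.6 ± 1.2 and 91.0 ± 1.8 RPKM. The log2 fold change was 0.04 for Fkbp6, with a 95% confidence interval from -0.02 to 0.10, and 0.02 for Ddx4, with an interval from -0.03 to 0.08. Gtsf1, a zinc finger protein that speeds the cleavage by Piwi proteins, was at -0.0053 with an interval from -0.16 to 0.15. Exd1, a partner of Tdrd12, was at -0.13 with an interval from -0.27 to 0.0023.

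Rnf17, a Tudor protein that restrains piRNA amplification in spermatocytes, rose by 0.17 on the log2 scale, and Tdrd9, a helicase that acts with MIWI2, by 0.12. Mael, a nuage protein of transposon silencing, fell by 0.15, and with library size only the call was lost (log2 fold change -0.055, adjusted p = 0.15). Tdrd12, a helicase-like Tudor protein needed for secondary piRNAs, fell from 40.4 and 42.4 CPM in Veh to 29.2 and 32.6 CPM in NRRA (log2 fold change -0.42, SE 0.06, adjusted p = 2.6e-06). Its NRRA libraries differed from each other more than its Veh libraries did, and both stayed below Veh.

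**Figure D3:**
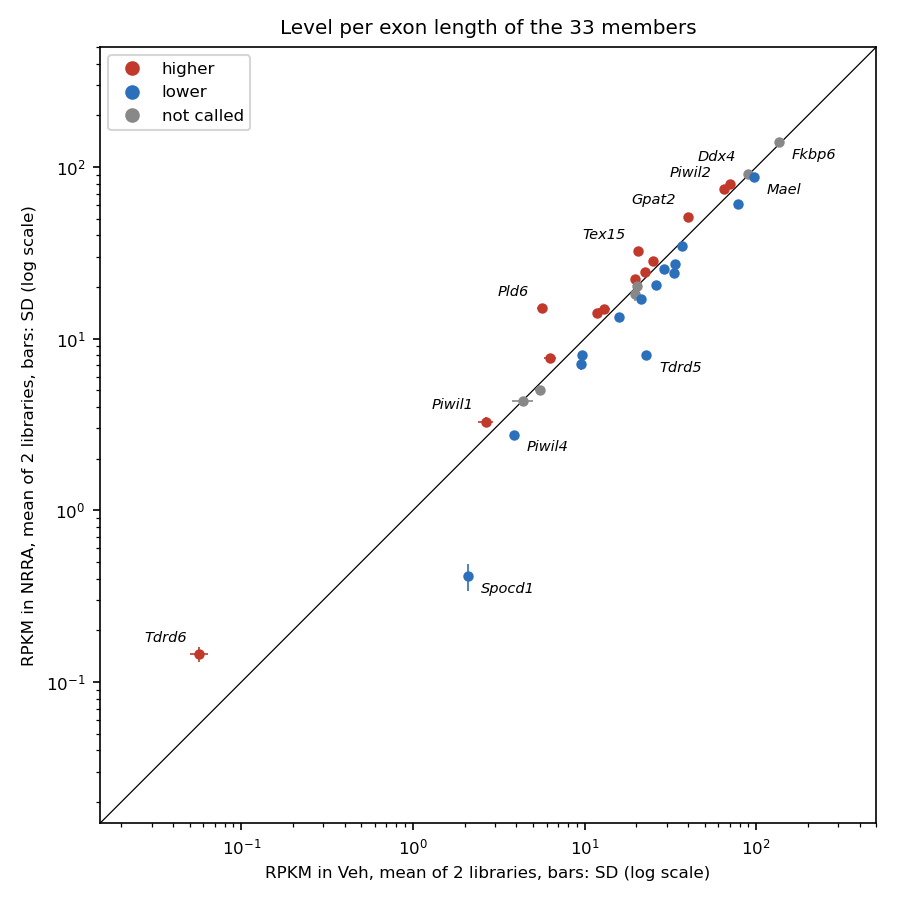
RPKM of the 33 members in Veh (x axis) and NRRA (y axis), both on log scales, as the mean of 2 libraries with SD bars and the line of equality. Fkbp6 and Ddx4 sit on the line at the upper end, Pld6 lies above it, Tdrd5 and Spocd1 lie below it, and Tdrd6 stands alone under 0.2 RPKM.

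Among the Tudor scaffold proteins 2 of 7 rose, 4 fell and Tdrd3 was not called. Tdrd5 (chromosome 1, 156255296 to 156303664, minus strand), which joins Tudor and LOTUS domains and is needed for pachytene piRNAs, had the clearest fall of all members. It was at 160.2 and 158 CPM in Veh and at 55.4 and 55.7 CPM in NRRA, a log2 fold change of -1.52 (SE 0.04, adjusted p = 1.3e-21), which is 2.86-fold lower. In the order of members by RPKM it went from the 14th place in both Veh libraries to the 24th and 25th in the NRRA libraries. Tdrd1, which binds MILI in the nuage of fetal germ cells and spermatogonia, fell from 181 and 178 CPM to 129 and 134 CPM (log2 fold change -0.45, SE 0.03, adjusted p = 8.5e-12). The groups of both genes lay far apart for their spread.

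Tdrd6, a scaffold of the chromatoid body of spermatids, was the least abundant member. Its counts were 10 and 13 for Veh against 31 and 33 for NRRA, a log2 fold change of 1.33 (SE 0.41, adjusted p = 0.0078) at a mean of 0.713 CPM. The call was lost without NRRA replicate 2 and in DESeq2 (adjusted p = 0.062). Without 1 library at a time, the log2 fold change of Tdrd6 ran from 1.22 to 1.46. Genes of late spermatocytes and spermatids, the stages at which Tdrd6 and Piwil1 are known to act, were few and low, with a higher sum in NRRA that was mostly Hspa2, with Spaca1 higher and Tnp1 lower, as given above, and their part in the rises of Tdrd6 and Piwil1 was not tested. Tdrd7, another chromatoid body protein, rose by 0.18. Stk31, a Tudor protein with a kinase domain, fell by 0.19, and Snd1, a Tudor nuclease found in most cell types, fell by 0.33. Tdrd3, which partners a topoisomerase in many cell types, had a log2 fold change of -0.03 with a 95% confidence interval from -0.19 to 0.13.

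Both genes of arginine methylation were lower. Prmt5, the enzyme that methylates Piwi proteins on arginine, had a log2 fold change of -0.10 (SE 0.04, adjusted p = 0.020). Its call was lost in DESeq2 (adjusted p = 0.097), with library size only (adjusted p = 0.86), without Veh replicate 2 and without NRRA replicate 1. Without 1 library at a time, the log2 fold change of Prmt5 ran from -0.14 to -0.052. Wdr77, its cofactor, fell by 0.25 on the log2 scale. Of its exonic bases 28.7% lie in Gm42890 on the same strand, which had between 35 and 71 counts per library beside 1999 to 2305 for Wdr77. Another 6.96% lie opposite Atp5f1, which had between 7252 and 8638 counts per library, so that the value of Wdr77 is uncertain where strand was not used in counting. Snd1, Tdrd3, Tdrd7, Prmt5, Wdr77 and Mov10 are known from many cell types, so that feeder RNA could add to their counts. Feeder genes were lower in NRRA, as given above. Their part in the falls of Snd1, Prmt5, Wdr77 and Mov10, and in the rises of other members, was not tested.

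Among the genes of transposon silencing 2 of 6 rose and 4 fell, and their log2 fold changes ran from -2.33 to 0.66. Spocd1 (chromosome 4, 129929249 to 129957115, plus strand), a partner of MIWI2 in DNA methylation of transposons, fell most of all members. Veh libraries held 189 and 195 of its counts and NRRA libraries 49 and 35, which is 6.97 and 6.55 against 1.505 and 1.163 CPM, a log2 fold change of -2.33 (SE 0.19, adjusted p = 6.1e-11), which is 5.03-fold lower. Tex15 (chromosome 8, 33516738 to 33585582, plus strand), a large germ cell protein that binds MILI in transposon silencing and is also needed for meiotic recombination, went the other way. It rose from 199.5 and 196 CPM to 314 and 309 CPM, a log2 fold change of 0.66 (SE 0.03, adjusted p = 1.2e-16). Both genes are tied to DNA methylation of transposons, and their NRRA libraries lay on opposite sides of Veh.

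Tex19.1, a germ cell protein that limits LINE-1 retrotransposons, fell from 149 and 146 CPM to 115 and 113 CPM (log2 fold change -0.37, SE 0.03, adjusted p = 6.1e-10). Morc1, a nuclear factor of transposon repression, fell by 0.27 on the log2 scale, and Mov10, an RNA helicase that restricts retrotransposons, by 0.30. Btbd18, which promotes transcription of pachytene piRNA clusters, rose by 0.19 (adjusted p = 0.0070), and the call was lost without Veh replicate 2 and without NRRA replicate 1. Without 1 library at a time, the log2 fold change of Btbd18 ran from 0.10 to 0.28.

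Piwil4, Spocd1 and Tex15 act upstream of enzymes that modify DNA and chromatin. Of 14 genes of chromatin silencing of transposons, 13 were tested, with 3 higher and 8 lower and a median log2 fold change of -0.15. Dnmt3l, the cofactor of de novo methylation, had counts of 42 and 62 for Veh against 13 and 12 for NRRA (log2 fold change -2.18, SE 0.36, adjusted p = 9.7e-06). Dnmt3b, a de novo methyltransferase, rose from 110.2 and 123 CPM to 157 and 159.7 CPM (log2 fold change 0.44, SE 0.04, adjusted p = 4.0e-10). Dnmt3a, another de novo methyltransferase, fell from 233 and 236 CPM to 136 and 138 CPM (log2 fold change -0.78, SE 0.03, adjusted p = 1.8e-17), so that the enzymes of this step lay on both sides of 0.

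Other genes linked to piRNAs or carrying Tudor domains moved little. Of 18 listed, 15 were tested, and 1 rose and 6 fell, with a median of -0.10 and none at 2-fold. The rise was that of Ubr2, a ubiquitin ligase that partners Tex19.1, at 0.27. The lowest was Mybl1, the transcription factor of pachytene piRNA clusters, at -0.29 (SE 0.11, adjusted p = 0.029). Its call was lost in DESeq2 (adjusted p = 0.14), with library size only (adjusted p = 0.13) and without any of Veh replicate 1, Veh replicate 2 or NRRA replicate 2. Without 1 library at a time, its log2 fold change ran from -0.41 to -0.19. The counts of Mybl1, 291 and 324 for Veh against 309 and 244 for NRRA, overlapped before scaling.

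Early meiosis genes were listed for comparison. Of 17 tested, 14 rose and 1 fell, with a median log2 fold change of 0.57, between Stra8 at 7.56 and Syce3, a synaptonemal complex gene, at -0.40. The call of Syce3 was lost in DESeq2 (adjusted p = 0.077), without Veh replicate 1 and without NRRA replicate 1. Without 1 library at a time, its log2 fold change ran from -0.46 to -0.34. The piRNA members had no such median shift, and the difference between the lists was not tested.

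**Figure D4:**
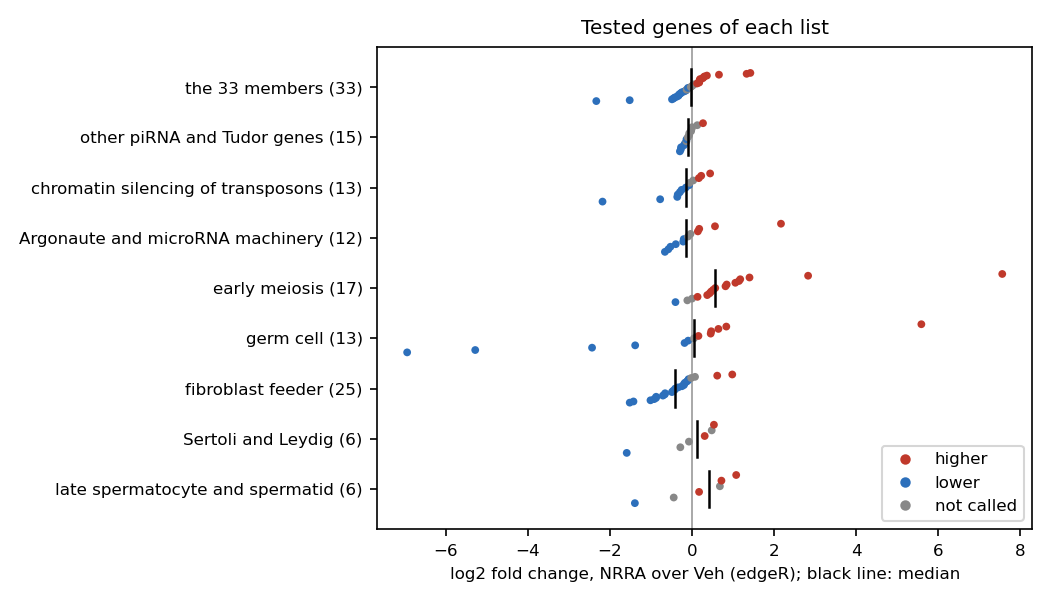
Log2 fold change (x axis, NRRA over Veh, edgeR) of every tested gene of the 33 members and of 8 other lists (y axis, number tested in brackets), coloured by call, with a black line at the median. The members and the other piRNA genes centre near 0, the early meiosis genes lie mostly to the right at a median of 0.57 and the feeder genes mostly to the left at -0.41.

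In their start regions the members were rich in CpG. The 36 member windows held a median of 20.5 CpG dinucleotides, beside 7 in all 32851 windows of the RefSeq table, and their median GC content was 61.8%, beside 52.7%. The E-box CACGTG, searched on both strands like the other motifs, was in 13 of 36 member windows (36.1%) and in 7.15% of all windows. Within windows that held 10 or more CpG the shares were 41.9% of 31 and 10.9% of 14281. The E-box was in 4 of 12 windows of members called higher and in 6 of 18 of members called lower, 33.3% of each, and in 3 of 6 windows of members not called. Windows of a gene with several start sites can overlap, so that these 13 windows belong to 10 genes.

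CNCCTCAG, the motif that STRA8 and MEIOSIN bind, was in 7 member windows (19.4%) of 6 genes and in 7.94% of all windows. It was in 3 of 12 windows of members called higher and in 3 of 18 of members called lower. In the Gpat2 window above it occurs at positions -72 to -65 and again, on the other strand, at -61 to -54, counted from the start site. Pld6 holds an E-box at -33 to -28. The Piwil1 window lies at a RefSeq start 33722 bases downstream of the GENCODE start of the gene, and whether these cells use it was not tested. It holds an E-box at -179 to -174 and another at -154 to -149, with the MYB motif AACTGCC on the other strand at -75 to -69. Tdrd5 holds the E2F motif TTCCCGC at the far end of its window, at -250 to -244, and Piwil4 none of the motifs. The Tdrd5 window lies at a RefSeq start 316 bases downstream of the GENCODE start, and all of it lies inside the GENCODE gene.

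The E2F motif was in 2 of 36 member windows (5.56%) and in 4.60% of all, and the MYB motif in 2 of 36 (5.56%) and in 4.12%. Within windows with 10 or more CpG, the E2F motif was in 6.45% of the member windows and in 9.20% of all, the MYB motif in 3.23% and 3.26%, and CNCCTCAG in 19.4% and 9.33%. The cAMP response element TGACGTCA, in 1.79% of all windows, was in no member window. A direct repeat of AGGTCA with 5 bases between, the classical site of RA receptors, was also in no member window, and in 3 of all windows. A match describes letters in a window, and no match says nothing about a factor.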

How the data were processed

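RNA-seq was analysed in 4 libraries of CD1 SSC cultures, 2 Veh and 2 NRRA, grouped and numbered by their titles. Columns were matched by the sample descriptions, in which the Veh libraries carry other numbers than in the titles. The authors deposited raw counts per gene. Per the labels' processing notes, STAR 2.6.1c, featureCounts 1.6.4 and the mm10 build were used. The study names DESeq2 for differential expression. The annotation release and the strand setting were not given in the sources used here. The labels name a TruSeq kit and the methods a stranded oligo-dT kit of another maker. PCR copies were not told apart, and 3 counts, the floor, were worth 0.0921 to 0.111 CPM. Floors cover counting error only.

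Genes were filtered with filterByExpr and tested with edgeR 4.0.16 in R 4.3.3 (TMM, robust quasi-likelihood F test, Benjamini-Hochberg over all tested genes, threshold 0.05). Fold changes are NRRA over Veh, and the SE comes from the F statistic. CPM use the TMM-scaled library size, and RPKM use merged GENCODE M21 exons, in which 99.5% of gene identifiers were found. Overlap and near-identity (BLAST 2.17.0, at least 95% over 100 bases) were computed for the members. The steps were tested on simulated data. Replicates were distinct libraries, with a chi-square per degree of freedom of 2.45 in Veh and 1.99 in NRRA. The common biological coefficient of variation was 2.6%, and SEs and p-values reflect this spread between libraries.

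The members and lists were chosen with earlier results of these data known. Every member is named with its fold change. Values in each library are given for the Piwi genes, for the 6 largest rises and 6 largest falls among called members with a mean of at least 1 CPM, and for Stra8. From each other list the largest called rise and fall at that level are named. Tdrd6, Star, Prm2, Fshr, Tbpl1, Spaca1, Tnp1 and Dnmt3a fall outside the rule and were chosen after their values were seen, as was the limit of 10 CpG. Motifs were searched in RefSeq promoter windows, and shares are descriptions without a test. Alternatives were RLE factors, library size only, DESeq2 1.42.0, limma-voom 3.58.1, no robust estimation, no or a stricter low-count filter (1 CPM in 2 libraries), a replicate block, a test against a 1.2-fold limit, and each library left out.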

Additional observations from a re-analysis of the deposited data

How the results depend on the processing

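Of 27 called members, 27 kept call and direction with RLE factors, limma-voom, no robust estimation and no filter, 26 with the stricter filter, 25 with library size only and 24 in DESeq2. A test against a 1.2-fold limit called 4 members higher (Pld6, Tdrd6, Tex15 and Gpat2) and 7 lower, and 3217 and 3304 of all genes. Called members at 2-fold or more and higher were 1 in DESeq2 and 1 with the stricter filter, which left out Tdrd6. With library size only, the median log2 fold change of the members was 0.059, and those of the lists were -0.014 (other piRNA and Tudor), -0.060 (chromatin silencing), -0.059 (Argonaute), 0.66 (early meiosis), 0.14 (germ cell) and -0.32 (feeder). This setting lifts all genes, with a median of 0.09. It also called Fkbp6 (0.13) and Ddx4 (0.11) higher, ended the calls of Mael (-0.06) and Prmt5 (-0.01), and turned the uncalled Gtsf1 (0.085) and Tdrd3 (0.059). Gtsf1 was at 0.0022 without a filter.

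Leaving out 1 library leaves 1 library in its group, so that the spread comes from the other group alone, and effect sizes are given here. Without 1 library at a time, the members' median ran from -0.12 to 0.018. The medians ran from -0.17 to -0.13 for chromatin silencing, -0.16 to -0.13 for Argonaute, 0.54 to 0.65 for early meiosis and 0.25 to 0.44 for late spermatocyte genes. The fold change of Gtsf1 ran from -0.12 to 0.11 and that of Tdrd3 from -0.16 to 0.12, both turning without Veh replicate 2 and without NRRA replicate 1. The fold change of Exd1 ran from -0.20 to -0.064 and that of Pnldc1 from -0.19 to -0.0099. With library size only, on all libraries, Exd1 was at -0.043 and Pnldc1 at -0.012.

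Same-numbered libraries did not deviate together (correlation -0.01 across genes). This cannot show whether libraries shared a culture or preparation, because the numbers follow the titles and the descriptions number the Veh libraries otherwise. With a replicate block 13 members were higher and 14 lower, and 5772 and 5836 of all genes, and no member's call changed. Depth limits Tdrd6 and, in NRRA, Spocd1, which had under 50 counts per library.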

Other observations

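Argonaute proteins, the relatives of Piwi proteins that carry microRNAs, were compared through 12 genes of the microRNA machinery, all of which were tested. Of these, 4 rose and 6 fell, with a median log2 fold change of -0.15. Ago4 rose most, from 5.12 and 4.40 CPM in Veh to 20.4 and 22.3 CPM in NRRA (log2 fold change 2.17, SE 0.11, adjusted p = 4.7e-15), and was the only gene of the list called at 2-fold. Xpo5, the exporter of microRNA precursors, fell from 201.3 and 201.5 CPM to 128 and 127 CPM (log2 fold change -0.66, SE 0.03, adjusted p = 1.1e-15). Ago3 rose by 0.56 and Ago2 fell by 0.53 on the log2 scale, so that members of the Argonaute family also lay on both sides of 0. The genes Ago3 and Ago2 were chosen after their values were seen.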
